A study of Mus musculus with 4 samples.

Results

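Microglia and macrophage-like cells were selected from single-cell RNA-seq of 4 mouse medulloblastomas as the barcodes that carried transcripts of 10 myeloid genes: Tyrobp, C1qa, C1qb, C1qc, Ctss, Csf1r, Fcer1g, Lyz2, Laptm5 and Trem2. A barcode is the tag that marks 1 droplet, and a unique molecular identifier (UMI) stands for 1 captured transcript. Barcodes entered with 200 genes or more and no more than 20% mitochondrial UMIs. A barcode was counted as microglia and macrophage-like with at least 3 UMIs summed over the 10 genes, from at least 2 of them, and at least 10 such UMIs per 10000 of its UMIs. The files hold 5670 barcodes, 5608 passed the filter, and 64 of these met the rule: 20, 10, 21 and 13 in mice 1 to 4. The other 5544 barcodes of the same filter serve as the comparison within each mouse.

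All 4 mice were Atoh1-cre:SmoM2 littermates of postnatal day 20, with 1 cerebellar tumour and 1 library each. In this model Cre expressed from Atoh1 switches on SmoM2, a constitutively active form of the Sonic hedgehog (SHH) signal transducer Smoothened, in granule neuron precursors. No tumour-free mouse is among the samples, so every comparison is between classes of cells inside tumours. Tumours were digested with Accutase for 20 minutes, red cells were lysed, dead cells were removed by a 7-AAD sort and 10000 cells were loaded per 10x Chromium lane, and each of these steps can set the share of a cell class.

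Microglia are the resident macrophages of the brain and arise from yolk sac precursors, while border macrophages line the meninges, vessels and choroid plexus and monocytes enter from blood. They survive on signalling through Csf1r, read lipids and debris through Trem2, whose signal passes through the ITAM adaptor Tyrobp, and tag synapses and debris with C1q, the first component of complement. Engulfed material is broken down in lysosomes by cathepsins such as Ctss. In brain tumours both microglia and infiltrating macrophages can be found.

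The libraries held 3415171, 2573901, 1679285 and 3801197 UMIs in mice 1 to 4. Microglia and macrophage-like barcodes held 83586 UMIs in all, so scarce transcripts rest on few molecules. The other barcodes held about 11341900, so raw UMI counts of the 2 classes do not compare levels. The study states 4749 cells, a stricter filter of 500 genes and 10% mitochondrial UMIs leaves 4137 barcodes, and no doublet caller was run here. Libraries shared 20 barcode sequences, 1 to 5 per pair of libraries, and none of them was a microglia and macrophage-like barcode. Microglia and macrophage-like barcodes were shallower than the others, with a median of 982.5, 923.5, 616 and 1521 UMIs in mice 1 to 4, against 1706, 1554.5, 1076.5 and 1792 in the other barcodes. Their median mitochondrial share was also lower in 4 of 4 mice, 1.90% ± 0.737 against 3.77% ± 0.413 (SD, n = 4). For both measures the exact paired sign-flip test over mice gave the smallest two-sided p that 4 pairs allow, which cannot pass 0.05.

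The share of barcodes that met the rule was small in each of the 4 tumours. It was 1.13%, 0.864%, 1.68% and 0.912% in mice 1 to 4, with exact 95% binomial intervals of 0.689 to 1.73%, 0.415 to 1.58%, 1.05 to 2.56% and 0.486 to 1.55%, which cover counting error only. The mean was 1.15% ± 0.376 (SD, n = 4). All 4 intervals overlap, which does not show the shares to be equal. Of the selected barcodes, 15, 7, 5 and 13 in mice 1 to 4 also passed the stricter filter, so mouse 3 had the most by 1 filter and the fewest by the other.

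How the UMIs of the 10 genes split between selected and other barcodes follows in large part from the rule, and is given as a description. The 64 selected barcodes held 2627 UMIs of the 10 genes, against 65 in the other 5544 barcodes. Of all such UMIs, 97.6% lay in the 64 barcodes. Of the other barcodes, 57 held 1 such UMI and 4 held 2, and none held more. Just inside the limits, 3 selected barcodes held exactly 3 of these UMIs and 5 held 4 or 5, and 1 lay near the level limit, at 14.2 UMIs per 10000, with the next at 45.9. Just outside, the highest barcode with 2 UMIs from 2 genes had 10.6 per 10000. The median level was 283 and the highest 812, a median of 7 of the 10 genes was detected, and 57 of 64 barcodes held at least 4 of them.

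**Figure D1:**
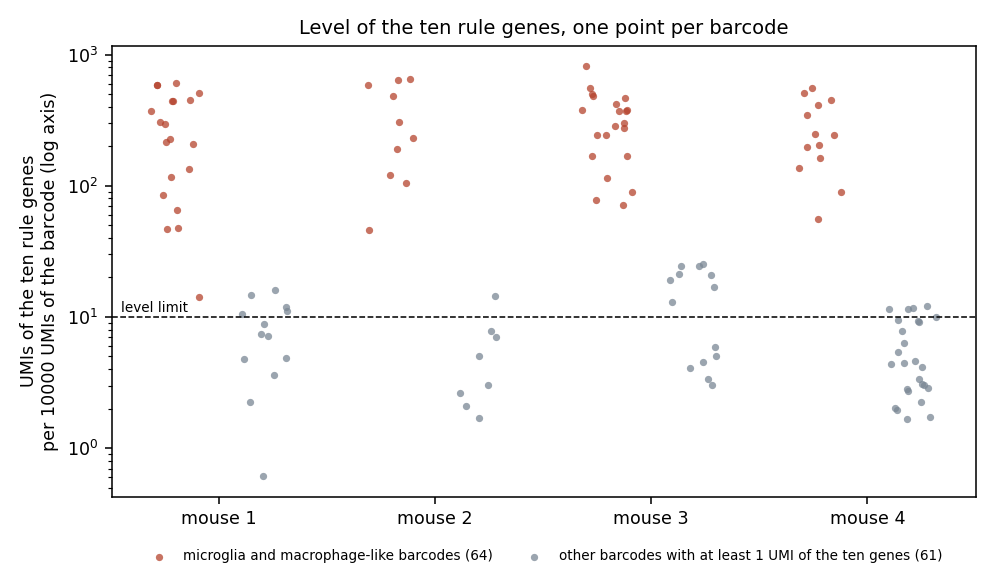
UMIs of the 10 selecting genes per 10000 UMIs of a barcode (log axis), by mouse, with 64 microglia and macrophage-like barcodes (red, left) and the 61 other barcodes that held at least 1 such UMI (grey, right). The dashed line is the level limit of 10 per 10000. Other barcodes above it held fewer than 3 UMIs; other barcodes at 0 are not drawn.

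The values of the selecting genes describe the choice and carry no test. They are given as UMIs per 10000 UMIs of the class, mice 1 to 4. C1qa, a chain of C1q, had 31.0, 18.8, 37.4 and 46.2 in microglia and macrophage-like barcodes, against 0.00591, 0, 0.00605 and 0.00533 in other barcodes. C1qb had 36.8, 32.3, 45.9 and 40.3, against 0, 0, 0.0121 and 0.00267. C1qc had 37.5, 26.0, 39.7 and 42.9, against 0.00295, 0.00392, 0 and 0.00800. The groups did not overlap for any chain, which the rule in large part sets, and 7 of the 64 barcodes held no C1q UMI at all.

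The receptor Trem2 had 16.9, 7.18, 22.7 and 14.4 in microglia and macrophage-like barcodes, with 134 UMIs, and 0 UMIs in the other barcodes, which is at least 6061-fold higher against a floor of 3 UMIs over the class. As for all selecting genes, this gap follows in large part from the rule. Tyrobp had 43.3, 74.4, 63.5 and 41.4, against 0.00591, 0, 0.0182 and 0.0187. Fcer1g, the ITAM chain shared by Fc receptors, had 24.2, 35.0, 42.0 and 24.8, against 0.00591, 0.00784, 0 and 0.0133. Tyrobp was found in 62 of the 64 barcodes and Fcer1g in 56, so few members lacked either.

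The lysosomal protease Ctss had 21.6, 17.0, 28.3 and 38.4, against 0.00591, 0, 0 and 0.00533, and the lysosomal membrane protein Laptm5 had 10.8, 3.59, 9.64 and 9.24, against 0.00295, 0, 0 and 0. Lyz2, the myeloid lysozyme, had 52.6, 175, 60.1 and 31.8, against 0.00591, 0.0157, 0.0545 and 0.0213. The high Lyz2 value of mouse 2 rests on 1 barcode with 134 of all 533 Lyz2 UMIs, and reads of Lyz2 may be shared with its near-identical copy Lyz1. Csf1r, the receptor for CSF1, was thin, with 9, 0, 6 and 17 UMIs in mice 1 to 4 and detection in 17 barcodes.

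The DNA just before the start is shown for 5 selecting genes, those of the 7 with a window that held the letters GAGGAA. These letters were searched because the class also held the transcription factor Spi1 (PU.1), which binds a purine-rich core. The windows are the 250 bases before the RefSeq gene start on GRCm38.p6, printed 5′ to 3′ on the gene's strand: C1qb chr4:136886201-136886450 (minus strand), C1qc chr4:136892915-136893164 (minus), Ctss chr3:95526536-95526785 (plus), Laptm5 chr4:130913066-130913315 (plus) and Trem2 chr17:48346151-48346400 (plus). Capitals mark GAGGAA, searched on both strands, which reads TTCCTC where it lies on the opposite strand.
C1qb: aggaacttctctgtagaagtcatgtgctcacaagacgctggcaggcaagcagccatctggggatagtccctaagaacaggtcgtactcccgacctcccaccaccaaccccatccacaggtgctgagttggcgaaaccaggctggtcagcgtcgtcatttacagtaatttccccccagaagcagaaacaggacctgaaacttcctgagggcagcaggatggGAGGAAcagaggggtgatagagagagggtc
C1qc: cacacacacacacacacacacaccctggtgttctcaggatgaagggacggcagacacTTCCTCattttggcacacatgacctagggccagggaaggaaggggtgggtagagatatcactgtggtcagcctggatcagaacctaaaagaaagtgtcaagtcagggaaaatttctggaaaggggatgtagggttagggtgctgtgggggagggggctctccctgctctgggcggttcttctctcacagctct
Ctss: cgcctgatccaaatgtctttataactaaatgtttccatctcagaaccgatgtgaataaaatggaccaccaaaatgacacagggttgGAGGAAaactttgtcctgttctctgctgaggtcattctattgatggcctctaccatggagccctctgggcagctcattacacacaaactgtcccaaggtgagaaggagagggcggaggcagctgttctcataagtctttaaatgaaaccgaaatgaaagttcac
Laptm5: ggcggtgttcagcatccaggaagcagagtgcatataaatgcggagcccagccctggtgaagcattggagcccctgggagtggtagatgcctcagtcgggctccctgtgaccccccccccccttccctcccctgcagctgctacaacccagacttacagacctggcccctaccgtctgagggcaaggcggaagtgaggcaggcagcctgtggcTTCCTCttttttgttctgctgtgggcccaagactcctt
Trem2: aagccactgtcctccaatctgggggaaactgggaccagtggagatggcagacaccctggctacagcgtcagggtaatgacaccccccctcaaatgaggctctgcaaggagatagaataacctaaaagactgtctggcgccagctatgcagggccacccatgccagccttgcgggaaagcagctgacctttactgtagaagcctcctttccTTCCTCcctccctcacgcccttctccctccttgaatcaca

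The motif began 30 bases before the start in C1qb, 40 in Trem2, 38 in Laptm5, 164 in Ctss and 193 in C1qc. It was in 5 of the 7 selecting genes with a window in the RefSeq table, and the windows of Fcer1g and Lyz2 did not hold it. Tyrobp, C1qa and Csf1r had no entry. The same 6 letters were in 25.9% of the windows of all 27025 genes, in 29.3% of those of the 314 genes with a window that were called higher in the class below, and in 27.1% of those of the 199 called lower. A match describes letters in a window and is neither a binding site nor a cause.

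To ask which other transcripts set these cells apart, sums of UMIs were made for each class in each mouse. They were compared by edgeR's quasi-likelihood test with mice as blocks, and p-values were adjusted by Benjamini-Hochberg over every gene that entered, with 0.05 as the threshold. Log2 fold changes are microglia and macrophage-like over other barcodes, with a standard error derived from the test statistic. Of 7269 genes tested, 405 (5.57%) were higher and 268 (3.69%) lower in microglia and macrophage-like barcodes, 9.26% in either direction. Of the 405, 320 were higher in 4 of 4 mice, and all 268 were lower in 4 of 4 mice, 42 of them with no UMI in the class. The median log2 fold change over all genes tested was -0.47. It was -0.68 without normalisation factors and -1.03 with factors taken from all genes tested, and the calls then split into 366 higher and 427 lower, and into 311 higher and 868 lower. Without mouse 1 the lower calls were 159 and without mouse 4 they were 151. Leaving out the deep barcodes of the class, those with more UMIs than the median of the other barcodes of their library, gave 220 higher and 113 lower.

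A gene that is near 0 in the other barcodes passed the filter on low counts only through the class in which it is high. Counts over such gene lists are therefore given as descriptions, beside the shares of 5.57% and 3.69% over all genes. The higher direction of such a gene is bound to the filter too, so its log2 fold change is given without a p-value. Fold changes of genes with 0 UMIs in 1 class are given as bounds against a floor of 3 UMIs, and those with 1 to 3 UMIs as a pooled ratio with its counting interval. In bulk sums, fewer expressing cells and less RNA per cell cannot be told apart.

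**Figure D2:**
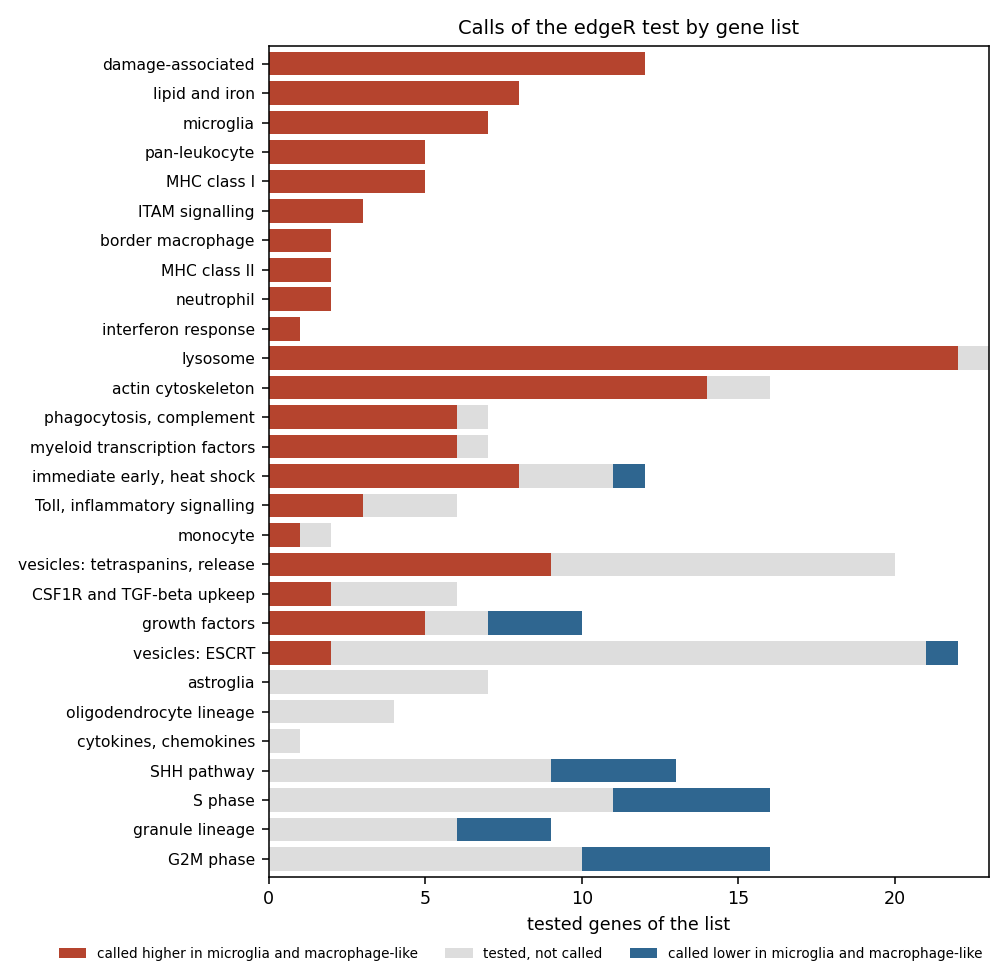
Tested genes of each gene list called higher in microglia and macrophage-like barcodes (red), lower (blue) or not called (grey) by the edgeR test. Lists of lysosome, damage-associated, lipid and iron genes were called higher almost throughout, with 22 of 23, 12 of 12 and 8 of 8 tested genes, and no gene of the SHH, S phase, G2M or granule lineage lists was.

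Microglia markers ranged from abundant to absent. Of the 14 microglia markers, 7 were tested and all 7 were higher (median log2 fold change 8.81, against -0.47 over all genes). Fcrls, an Fc receptor-like gene of microglia, had 11.2, 6.28, 5.10 and 10.7 UMIs per 10000 in mice 1 to 4, against 0, 0, 0.00605 and 0.00267 in other barcodes, a pooled ratio of 5156 (95% counting interval 1379 to 43348.5). Mouse 3 was the lowest, and the groups did not overlap. Cst3, the protease inhibitor cystatin C, had 86.5, 48.4, 53.9 and 89.8, against 3.38, 3.64, 3.49 and 3.50 (log2 fold change 4.54 ± 0.16 (SE), adjusted p = 7.20e-174 by edgeR). It was found in 59 of the 64 barcodes. The barcode with the most Cst3 UMIs, 96, was the one of mouse 1 with Cd74 and Xcr1 described below. Cx3cr1, the fractalkine receptor, had 3.97, 0.897, 1.70 and 5.54, against 0, 0.00784, 0.00605 and 0, a pooled ratio of 1357 (95% counting interval 422 to 6948).

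The most specific homeostatic markers were thin and uneven over mice. P2ry12, a purine receptor of resting microglia, had 16, 3, 0 and 14 UMIs in mice 1 to 4, a pooled ratio of 4478 (95% counting interval 749.6 to 182156) to the 1 UMI in the other barcodes. It was below the filter on low counts. Tmem119 had 0, 0, 1 and 9 UMIs in mice 1 to 4, and Siglech and P2ry13 had 5 and 5 UMIs in all, each with no UMI in mice 2 and 3. Sall1, a transcription factor of microglia, had 1 of the 83586 UMIs of the class and 30 of about 11341900 in other barcodes. It did not pass with at least 5 UMIs as the filter (adjusted p = 0.76 by edgeR). Mouse 3, which held no P2ry12 UMI, was also the shallowest library, with 16 of its 21 class barcodes under 500 detected genes, and the part of depth in these zeros was not tested.

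Some border macrophage genes were present as well. Pf4, a chemokine of these macrophages, had 2.52, 0.897, 11.9 and 0.369 UMIs per 10000 in mice 1 to 4, against 0, 0, 0.0121 and 0, a pooled ratio of 2035 (95% counting interval 516 to 17577). Mouse 3 held 21 of the 30 Pf4 UMIs. Ms4a7 had 6.13, 1.79, 2.27 and 1.85, against 0.00295, 0, 0 and 0, a pooled ratio of 3799 (95% counting interval 628 to 155358), and mouse 1 stood above the rest. Both tested genes of the list of 12 were higher. Without mouse 1, without mouse 3 or without the deep barcodes, 1 gene of the list passed the filter and was higher. Mrc1 had 1 UMI, and Cd163 and 3 other listed genes had none, which allows up to 1.08 UMIs per 10000 in mouse 1 and 2.69 in mouse 2. The list as a whole had 11.2, 4.48, 18.1 and 3.69 UMIs per 10000, against 0.0975, 0.0705, 0.0726 and 0.0880.

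The microglia and macrophage genes were also counted in single barcodes. With P2ry12, Tmem119, Cx3cr1, Fcrls, Gpr34, Siglech and P2ry13 on one side and Pf4, Ms4a7, Mrc1, F13a1, Folr2 and Cbr2 on the other, 19 barcodes held only microglia genes, 6 only macrophage genes, 19 both and 20 neither. The 20 with neither had a median of 644.5 UMIs, against 1155 in those with both, and 10 of the 20 came from mouse 3. The 19 with both were 11, 2, 4 and 2 in mice 1 to 4. Their number was not set against the number that 2 unrelated sets of genes would give. The 2 kinds of cell were not separated further.

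The label was checked against markers of other blood cells, and 7 of the 64 barcodes carried at least 5 UMIs of a neutrophil, monocyte, dendritic or MHC class II list. Of these, 3 were marked by neutrophil genes, 1 each in mice 1, 2 and 4. The one in mouse 4 held 934 of all 1013 UMIs of S100a8 and 455 of 533 of S100a9, subunits of calprotectin, with 78 of Camp and 67 of Ngp, proteins of neutrophil granules. It held no C1q UMI, and neither did the other 2. A barcode of mouse 2 held 96 of 113 UMIs of Chil3, the chitinase-like protein Ym1, and 5 of 7 of the monocyte chemokine receptor Ccr2. One barcode of mouse 1 held 5 monocyte-list UMIs, and one of mouse 3 held 23 of the MHC class II list. Another of mouse 1 held 105 of 116 UMIs of Cd74 and all 6 of Xcr1, a receptor of type 1 dendritic cells.

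Some calls rest on these few barcodes. S100a8 had 12.6, 37.7, 1.13 and 345 UMIs per 10000, against 0, 0, 0.163 and 0.00533 (log2 fold change 11.26 ± 0.25 (SE) by edgeR), but 6 barcodes carried it and 2 of its UMIs remain without the 7. Chil3 had 0.721, 86.1, 1.13 and 4.80, against 0, 0, 0.00605 and 0, from 4 barcodes. Without the 7 barcodes, 343 genes were higher and 194 lower, and the microglia list had 7 of 7 tested genes higher. Without the deep barcodes it had 4 of 4. Without the 7 barcodes, the monocyte list was at 0.899, 0, 1.75 and 0 UMIs per 10000 in mice 1 to 4, and the neutrophil list at 0, 1.31, 1.16 and 0.

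Markers of lymphocytes, mast cells, red cells and vessels were at or near 0. The T and NK list had 1 UMI in the class and 20 in the other barcodes, the B cell list 2 and 67, the mast cell list 0 and 43, the vascular list 0 and 114, and the erythroid list 0 and 1. The choroid plexus and ependymal list had 1 and 4362. These are raw counts from 83586 UMIs in the class and about 11341900 in the other barcodes, so they do not compare levels. None of their genes passed the filter on low counts.

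**Figure D3:**
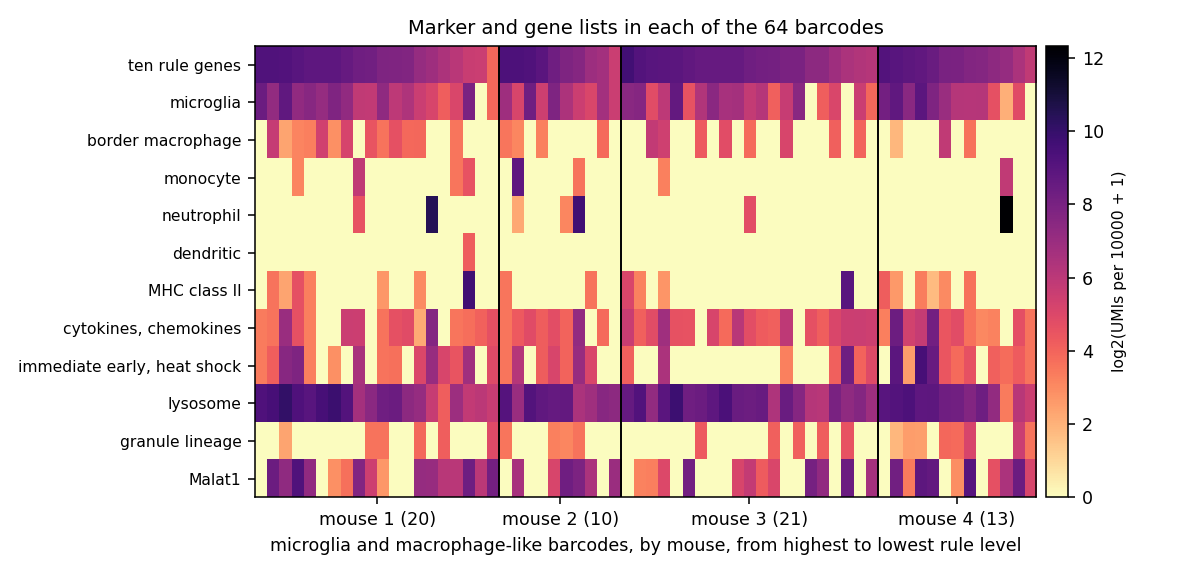
Level of marker and gene lists in each of the 64 microglia and macrophage-like barcodes (columns, by mouse, from highest to lowest level of the 10 selecting genes), as log2(UMIs per 10000 + 1). Lysosome genes were present in all 64, border macrophage genes in 28, and neutrophil, dendritic or monocyte genes in a few columns.

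Of 6 listed genes shared by all white blood cells, 5 passed the filter on low counts and all 5 were higher, a count that describes genes near 0 in other barcodes. Cd52, a surface glycoprotein, had 12.3, 14.4, 5.10 and 8.50 UMIs per 10000, against 0.0177, 0, 0.0182 and 0.00533 (log2 fold change 10.17 ± 0.45 (SE) by edgeR). Arhgdib, a gene of blood cells, had 4.33, 5.38, 4.54 and 7.02, against 0.00886, 0.00392, 0.0121 and 0.00267 (log2 fold change 9.83 ± 0.57 (SE)). Cd53, a leukocyte tetraspanin, had 4.69, 4.48, 1.13 and 5.17, against 0, 0, 0.0121 and 0, a pooled ratio of 2307 (95% counting interval 591 to 19818). Aif1, outside the list, encodes the microglial stain IBA1 and had 16.9, 16.1, 11.9 and 14.8, against 0, 0.00392, 0 and 0.00533, a pooled ratio of 5699 (95% counting interval 1906 to 28005). Aif1 was found in 44 of 64 barcodes, and its levels did not overlap between the classes. Of the Cd52 UMIs, 30 of 82 lay outside the 7 barcodes with other myeloid markers. The common leukocyte gene Ptprc (CD45) had only 5 UMIs, in 4 barcodes.

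Transcription factors of the macrophage lineage were higher for 6 of the 7 tested of 17 listed. Spi1, the lineage factor PU.1, had 5.05, 7.18, 6.80 and 4.43 UMIs per 10000, against 0.00591, 0, 0.00605 and 0, a pooled ratio of 2081 (95% counting interval 669 to 10458), and was found in 29 barcodes. Irf8, its partner in microglia and dendritic cells, had 8.65, 1.79, 1.13 and 3.33, against 0.0561, 0.0431, 0.0242 and 0.0347 (log2 fold change 6.88 ± 0.53 (SE) by edgeR). One barcode held 13 of the 37 Irf8 UMIs, and mouse 1 was the highest. Irf5, Mef2a and Mef2c were also higher, and Tgif1, at a log2 fold change of 0.53 ± 0.76, did not pass (adjusted p = 0.752). Without the deep barcodes 2 of 5 tested genes were higher.

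Lysosomal genes were the broadest group. Of 25 listed, 23 were tested and 22 were higher (median log2 fold change 3.94). The list took 381, 283, 351 and 329 UMIs per 10000 in mice 1 to 4, against 31.5, 33.3, 31.0 and 29.4 in other barcodes. Ctsd, an aspartic protease, had 127, 97.8, 122 and 96.4, against 1.20, 1.10, 1.08 and 1.04 (log2 fold change 6.88 ± 0.16 (SE) by edgeR, with the adjusted p returned as 0). Ctsb, a cysteine protease, had 52.6, 31.4, 47.6 and 35.1, against 1.20, 1.19, 1.23 and 1.04 (log2 fold change 5.40 ± 0.19 (SE), adjusted p = 8.80e-180). Cd68, a glycoprotein of macrophage lysosomes, had 6.49, 17.0, 7.94 and 9.61, against 0.00295, 0.00392, 0 and 0.00533 (log2 fold change 11.43 ± 0.50 (SE)). Ctsz, Ctsc, Ctsl, Lgmn, Grn, Psap and Npc2 were among the other members called higher, with log2 fold changes from 2.33 for Npc2, a cholesterol carrier, to 8.14 for Ctsc, the activator of granule proteases.

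Laptm4a was the tested lysosomal gene not called, at a log2 fold change of -0.39 ± 0.32 (adjusted p = 0.491). Cd63, a tetraspanin of late endosomes, had 21.3, 14.4, 27.8 and 12.6, against 12.5, 13.7, 14.5 and 13.3, and the groups overlapped. It passed as higher at 0.71 ± 0.18 on that scale (adjusted p = 0.00124 by edgeR), but not with DESeq2, with other normalisation factors or without mouse 1.

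**Figure D4:**
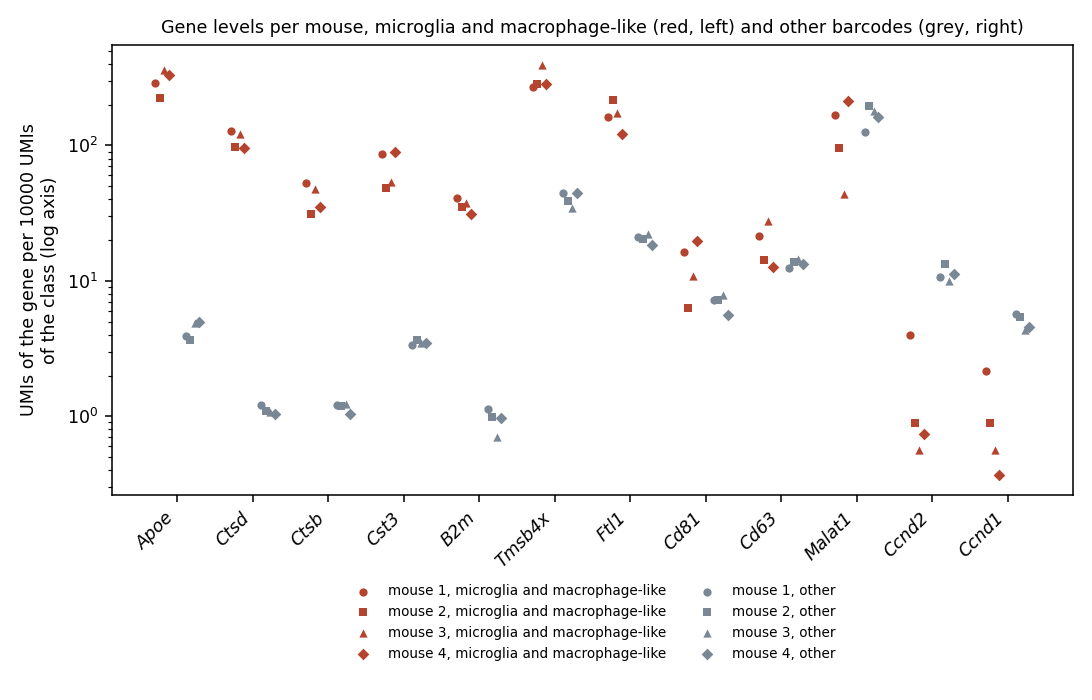
UMIs of 12 genes per 10000 UMIs of the class (log axis), 1 point per mouse, with microglia and macrophage-like barcodes in red on the left and other barcodes in grey on the right. From Apoe to Ftl1 the 4 red points lie above the 4 grey ones, for Cd81, Cd63 and Malat1 the groups overlap, and for Ccnd2 and Ccnd1 the red points lie below.

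Phagocytosis and complement genes were mostly below the filter, and most of those tested were higher. Of 21 listed genes in the files, 7 were tested and 6 were higher: Gas6, C3ar1, Fcgr2b, Fcgr3, Sirpa and Vsir. Fcgr3, a low-affinity IgG receptor, had 5.77, 4.48, 8.50 and 8.87 UMIs per 10000, against 0, 0, 0.00605 and 0.00267, a pooled ratio of 4071 (95% counting interval 1079 to 34385). C3ar1, the receptor for complement C3a, had 1.80, 0.897, 1.13 and 3.33 and no UMI in the other barcodes, at least 769-fold higher. Sirpa, the inhibitory receptor that reads CD47, had 2.52, 0.897, 2.83 and 2.22, against 0.118, 0.0862, 0.0424 and 0.0960 (log2 fold change 4.91 ± 0.62 (SE) by edgeR). Itgam and Itgb2, the chains of complement receptor 3, had 7 and 7 UMIs in the class and none elsewhere, at least 317-fold higher each, and were below the filter. Without mouse 1 the list had 2 higher of 4 tested, without mouse 4 it had 3 of 5 and without the deep barcodes 2 of 4.

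Kinases and adaptors downstream of Tyrobp and Fcer1g gave 3 tested genes of 16, all higher. Lyn, a Src-family kinase, had 1.08, 0.897, 0.567 and 2.96 UMIs per 10000, against 0.0148, 0.0118, 0.0121 and 0.0213 (log2 fold change 6.81 ± 0.76 (SE) by edgeR). Fyb, an adaptor, had 2.16, 2.69, 0.567 and 1.85, against 0.0915, 0.0745, 0.0847 and 0.0826 (log2 fold change 4.67 ± 0.67 (SE)). The classes did not overlap for Lyn or Fyb. None of the 3 passed the filter on low counts without the deep barcodes, and 1 was called without the 7 barcodes of other myeloid markers. Syk and Vav1 had 4 and 11 UMIs in the class and 1 UMI each in the other barcodes.

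Of 6 tested genes of 18 in Toll-like receptor and inflammatory signalling, 3 were higher. Ly86, the partner of a Toll-like receptor homologue, had 6.13, 7.18, 9.07 and 5.91 UMIs per 10000, against 0.00591, 0.00392, 0 and 0, a pooled ratio of 2578 (95% counting interval 839 to 12871). Pycard, the inflammasome adaptor ASC, had 5.05, 2.69, 5.10 and 7.39, against 0.564, 0.286, 0.520 and 0.349 (log2 fold change 3.87 ± 0.41 (SE), adjusted p = 2.18e-19 by edgeR). Nfkbia, the NF-kappa-B inhibitor, had 1.80, 0.897, 3.40 and 4.80, against 0.827, 0.592, 0.944 and 0.634, and overlapped (log2 fold change 2.20 ± 0.47 (SE), adjusted p = 7.65e-05). Nfkbia did not pass without mouse 4. The other 3, Irak1, Nfkb1 and Rela, had 5, 2 and 2 UMIs in the class and did not pass. Cd14 and Tlr2 had 9 and 6 UMIs and were below the filter.

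Lipid and iron handling genes were higher in 8 of 8 tested of 15 listed. Apoe, the lipid carrier, had 287, 224, 357 and 333 UMIs per 10000 in mice 1 to 4, against 3.90, 3.68, 4.91 and 4.99 (log2 fold change 6.34 ± 0.13 (SE) by edgeR, with the adjusted p returned as 0). It was found in 60 of the 64 barcodes. Thinned to 500 UMIs per barcode, 53 of 60 microglia and macrophage-like barcodes (88.3%) and 737 of 5289 other barcodes (13.9%) held an Apoe UMI, and without thinning the shares were 93.8% and 29.9%. Ftl1, a ferritin chain whose reads may be shared with processed copies, had 162, 218, 175 and 122, against 21.0, 20.3, 22.0 and 18.5 (log2 fold change 3.26 ± 0.12 (SE), adjusted p = 1.17e-148). On the log2 scale Fth1, the other chain, was higher by 3.06 ± 0.14, Plin2, of lipid droplets, by 3.88 ± 0.48, and Hmox1, which degrades haem, by 5.27 ± 0.65. Lpl, lipoprotein lipase, was higher by 3.34 ± 0.57 on the same scale, but in 3 of 4 mice.

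The damage-associated list, genes known to be raised in microglia around plaques or injury, had 12 of 12 tested genes higher, of 17 in the files. Several also stand on the lists above. Cst7, the protease inhibitor cystatin F, had 7.21, 5.38, 4.54 and 3.69 UMIs per 10000 in mice 1 to 4, with 44 UMIs in 17 barcodes and none in the other barcodes, at least 1990.1-fold higher. Spp1, osteopontin, had 1.80, 0.897, 15.3 and 3.69, against 0.00295, 0, 0.0121 and 0.00533 (log2 fold change 9.85 ± 0.61 (SE) by edgeR). One barcode held 18 of the 43 Spp1 UMIs, and mouse 3 was the highest. Cd9, a tetraspanin, had 7.21, 4.48, 7.94 and 14.4, against 5.97, 6.96, 5.42 and 7.59, and overlapped. It passed narrowly (log2 fold change 0.70 ± 0.23 (SE), adjusted p = 0.0268) and was called in 6 of 17 alternatives. Leaving out mouse 1, 3 or 4 each ended that call. No microglia of tumour-free mice were among the samples, so the list shows how these cells differ from the tumour's other cells and not a change of state.

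MHC class I genes, which present peptides from inside the cell, were higher in all 5 tested of 10 listed. B2m, the light chain, had 40.7, 35.0, 37.4 and 31.0 UMIs per 10000, against 1.14, 0.992, 0.702 and 0.970 (log2 fold change 5.50 ± 0.19 (SE), adjusted p = 1.25e-173 by edgeR). H2-D1, a heavy chain whose reads may be shared with other heavy chains, had 11.2, 7.18, 9.64 and 10.7, against 0.496, 0.549, 0.611 and 0.584 (log2 fold change 4.40 ± 0.35 (SE), adjusted p = 5.37e-34). Psmb8, an immunoproteasome subunit, had 2.52, 4.48, 6.24 and 1.85, against 0.00295, 0.0118, 0.00605 and 0.0107 (log2 fold change 8.82 ± 0.63 (SE)). The groups did not overlap for any of the 3.

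MHC class II was carried by few barcodes. Cd74, the invariant chain, had 37.9, 0.897, 5.10 and 0.369 UMIs per 10000, against 0.00295, 0, 0.00605 and 0, a pooled ratio of 7870.1 (95% counting interval 2130.2 to 65758), but 4 barcodes held it and 2 of its UMIs remain without the 7 barcodes of other myeloid markers. H2-Aa had 92, 0, 5 and 1 UMIs in mice 1 to 4, 92 of them in 1 barcode. H2-DMa, which loads peptides, had 6.13, 0.897, 1.13 and 0.739, against 0.00591, 0.0118, 0.00605 and 0.00533 (log2 fold change 8.48 ± 0.69 (SE) by edgeR). Both tested genes of 9 were higher, 1 was without the 7 barcodes, and none passed the filter on low counts without mouse 1, without the deep barcodes or under the stricter cell filter. The list stood at 4.49, 2.63, 2.91 and 3.76 UMIs per 10000 in mice 1 to 4 without the 7. Of 14 interferon response genes 1 was tested and higher: Bst2, which tethers virions, had 3.97, 4.48, 3.40 and 1.48, against 0.00886, 0, 0.0121 and 0.00800 (log2 fold change 8.83 ± 0.64 (SE)).

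Chemokine transcripts came mostly from few barcodes. Of 21 listed cytokines and chemokines, only Mif passed the filter on low counts, and it was not called (log2 fold change 0.01 ± 0.21, adjusted p = 0.992 by edgeR). Ccl4 had 14, 0, 1 and 106 UMIs in mice 1 to 4 and none in the other barcodes, at least 5473-fold higher, and 1 barcode held 67 of the 121. Ccl3 had 13, 2, 0 and 63, with 4 UMIs in the other barcodes, and 1 barcode held 46. Ccl12 had 1, 0, 10 and 66, from 12 barcodes, and no UMI elsewhere. Mouse 4 held most UMIs of all 3 chemokines, which attract leukocytes. All 20 Ccl7 UMIs came from 1 barcode of mouse 3, and 16 of 22 Ccl2 UMIs from 1 barcode of the same mouse. Il1b had 11, 10, 0 and 0 UMIs, all from barcodes with other myeloid markers, and Tnf had 3, all in mouse 3.

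Growth factors went both ways. Of 10 tested of 16, 5 were higher and 3 lower. Igf1, a growth factor that macrophages can supply to neighbouring cells, had 5.77, 5.38, 5.67 and 5.17 UMIs per 10000, against 0.00295, 0, 0.00605 and 0, a pooled ratio of 3121 (95% counting interval 816 to 26541), and was found in 32 of 64 barcodes. The classes did not overlap. Lgals3, galectin 3, had 3.61, 11.7, 14.7 and 7.02, against 0.0148, 0.00392, 0.0182 and 0.0187 (log2 fold change 9.31 ± 0.47 (SE) by edgeR). Ptn, pleiotrophin, had 1 UMI in the class and 3188 in other barcodes, and Mdk, midkine, 3 and 3014 (adjusted p = 4.16e-05 and 0.00249, both lower). Tgfb2 was lower too, with 1 UMI against 1415. Tgfb1 had 14 of the 83586 UMIs of the class and 16 of about 11341900 in other barcodes. Its level was thus higher in the class, but it was below the filter. Without mouse 4 or without the deep barcodes, 1 gene was called lower.

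Of 14 genes on the CSF1R and TGF-beta upkeep list, signals that maintain microglia, 6 were tested and 2 were higher, beside 5.57% over all genes. Sirpa and Cd47 were higher, and Tgfbr1, Smad3, Cd200 and Itgb8 did not pass. With at least 5 UMIs as the filter, 4 of 11 were higher. In simulated data the test missed most genes set higher by 1 or 2 log2 units, so genes that did not pass are not shown to be equal. Cd47, the ligand of Sirpa, had 0.721, 3.59, 1.13 and 1.85 UMIs per 10000, against 0.446, 0.498, 0.545 and 0.498 (log2 fold change 1.94 ± 0.60 (SE), adjusted p = 0.0158 by edgeR), and that call was lost without mouse 1, 2 or 4. Tgfbr2 had 6 UMIs and was below the filter.

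Actin genes were higher in 14 of 16 tested of 18 listed. Tmsb4x, which holds actin monomers, had 272, 285, 392 and 285 UMIs per 10000 in mice 1 to 4, against 44.4, 38.7, 34.4 and 44.1 (log2 fold change 3.17 ± 0.11 (SE), adjusted p = 3.39e-177 by edgeR), and was found in all 64 barcodes. Arpc1b, a subunit of the branching complex Arp2/3, had 16.9, 14.4, 24.9 and 14.4, against 0.254, 0.235, 0.242 and 0.269 (log2 fold change 6.35 ± 0.29 (SE), adjusted p = 5.92e-104). Cyba, a chain of the NADPH oxidase that stands on this list, had 12.6, 13.5, 15.3 and 13.3, against 0.298, 0.165, 0.103 and 0.0853 (log2 fold change 6.74 ± 0.37 (SE)). Actb, the common cytoplasmic actin, was higher by 0.47 ± 0.14 on the log2 scale (adjusted p = 0.0148), and its direction turns with normalisation factors from all genes (-0.12). Wasf2 and Cap1 did not pass.

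Extracellular vesicle genes, which the series title names, were taken as 2 lists. Of 23 ESCRT genes, which bud vesicles into endosomes, 22 were tested, 2 were higher and 1 lower, beside 9.26% called over all genes. Sdcbp (syntenin), a vesicle cargo adaptor, had 5.05, 9.87, 4.54 and 5.91 UMIs per 10000, against 1.27, 1.19, 1.02 and 1.15 (log2 fold change 2.63 ± 0.36 (SE), adjusted p = 2.14e-11 by edgeR). Vps37b, an ESCRT-I subunit, had 0.721, 0, 0.567 and 1.48, against 3.94, 3.99, 4.56 and 3.92 (log2 fold change -2.04 ± 0.49 (SE), adjusted p = 6.03e-04). Chmp3 was higher by 2.03 ± 0.68 on the log2 scale (adjusted p = 0.0324), a call lost when any 1 mouse was left out.

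Tetraspanins and release genes gave 9 higher of 20 tested, of 25 listed. Cd53 and Cd37 are tetraspanins of blood cells, and Vamp8 is a fusion protein of late endosomes. Cd81, a tetraspanin of most cells, had 16.2, 6.28, 10.8 and 19.6 UMIs per 10000, against 7.26, 7.27, 7.82 and 5.62 (log2 fold change 1.25 ± 0.20 (SE), adjusted p = 3.90e-08 by edgeR). It lay below the other barcodes in mouse 2, and it did not pass with DESeq2. Vamp8 had 2.52, 0.897, 5.67 and 2.59, against 0.0354, 0.0157, 0.0242 and 0.0666 (log2 fold change 6.45 ± 0.59 (SE)). Tspan4, Rab7 and Flot1 were higher by 3.76, 1.66 and 2.06 on the log2 scale, and Cd63 and Cd9 are given above. The other 11 tested genes, Rab11a, Rab31, Smpd3 and Tspan7 among them, did not pass. Without mouse 1, 5 genes were higher and 1 lower, and without mouse 4, 5 were higher.

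Transcripts of the tumour's own lineage were low in the class but not absent. The granule lineage list had 5.41, 3.59, 2.83 and 9.61 UMIs per 10000 in mice 1 to 4, against 18.1, 19.1, 20.5 and 19.9 in other barcodes, lower in 4 of 4 mice (exact paired sign-flip test, with the smallest p that 4 mice allow). Of 9 tested genes 3 were lower: Barhl1 and Mfap4, and Ptch1, the SHH receptor and target. Barhl1, a transcription factor of granule cells, had 1.44, 0.897, 0 and 0.369, against 3.35, 4.40, 5.32 and 4.24 (log2 fold change -2.29 ± 0.50, adjusted p = 1.27e-04 by edgeR). Ptch1 had 3 UMIs against 2824 (adjusted p = 0.00382), a call lost without mouse 1 or 3. Without mouse 1, and likewise without mouse 3, 1 of the 9 was lower. Of the 64 barcodes, 41 held no granule list UMI and 2 held at least 5. One of these 2 had 6 such UMIs and the lowest accepted level of the selecting genes, with 3 UMIs. The other, in mouse 4, held 15 of the 50 granule list UMIs of the class.

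The SHH pathway gave 4 lower of 13 tested of 16 listed. Ccnd2, a cyclin induced by SHH, had 3.97, 0.897, 0.567 and 0.739 UMIs per 10000, against 10.8, 13.4, 9.92 and 11.3 (log2 fold change -2.42 ± 0.31, adjusted p = 4.41e-13 by edgeR). Ccnd1, its relative, had 2.16, 0.897, 0.567 and 0.369, against 5.67, 5.37, 4.32 and 4.53 (log2 fold change -1.98 ± 0.44, adjusted p = 1.33e-04). Sfrp1, a secreted Wnt antagonist, had 0.361, 0, 1.70 and 0, against 2.96, 4.50, 3.50 and 3.78 (log2 fold change -2.62 ± 0.58, adjusted p = 1.60e-04). For these 3 the class lay below the other barcodes in every mouse. Gli1, the pathway's transcription factor, had 2 UMIs and did not pass.

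All listed S phase and G2M genes were tested, and most did not pass. Of 16 S phase genes 5 were lower, Mcm2, Mcm6, Mcm7, Dtl and Uhrf1, and of 16 G2M genes 6 were lower, Mki67, Top2a, Ccnb1, Aurkb, Cenpf and Cdc20, and none was higher. Without mouse 4 the edgeR test made 0 G2M calls (6 genes lower at an unadjusted p under 0.05), without mouse 1, 2 or 3 they were 3, and without the 7 barcodes of other myeloid markers 2. The S phase calls were 3 without mouse 1, 3 or 4. With every barcode thinned to 500 UMIs, and likewise without the deep barcodes of the class, G2M calls were 0. In these 2 fits 2 and 6 G2M genes were lower at an unadjusted p under 0.05 by edgeR, and S phase calls were 2 and 1. Mcm7, a helicase subunit, had 1 UMI against 3376 (adjusted p = 1.83e-05 by edgeR). Top2a, the mitotic topoisomerase, had 0.361, 1.79, 1.13 and 0.369 UMIs per 10000, against 3.36, 3.90, 3.41 and 4.59 (log2 fold change -2.12 ± 0.52, adjusted p = 8.88e-04). Thinned to 500 UMIs, 5 of 60 class barcodes (8.33%) and 974 of 5289 other barcodes (18.4%) held a Mki67 or Top2a UMI, and without thinning the shares were 12.5% and 36.8%. The thinned share was lower in 3 of 4 mice (exact paired sign-flip p = 0.25). No cycling of these cells is read from the 5 barcodes.

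Glial markers were not called in either direction, but the test missed most genes set lower in simulated data, as given below. None of 7 tested astroglia genes passed, with 1.87 ± 1.18 UMIs per 10000 for the list in the class, against 6.48 ± 1.06 in other barcodes (SD, n = 4), and none of 4 tested oligodendrocyte lineage genes, with 1.09 ± 1.29, against 4.64 ± 1.77. At an unadjusted p under 0.05, 4 astroglia and 2 oligodendrocyte genes were lower by edgeR, and 4 and 3 by DESeq2, which called none after adjustment. Gfap and S100b had no UMI in the class. With factors from all genes, 4 astroglia and 3 oligodendrocyte genes were called lower.

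The largest fitted log2 fold changes outside the selecting genes included several genes not on any list, and Dtl of the S phase list. AF251705 had 5.77, 3.59, 5.10 and 1.85 UMIs per 10000 and no UMI in the other barcodes, at least 1538-fold higher, from 20 barcodes. Pld4, a phospholipase D relative of myeloid endosomes, and Anxa3, an annexin, had 27 and 21 UMIs and none elsewhere, at least 1221- and 949.8-fold higher. Anxa1 had 26 UMIs, but 21 lay in 1 barcode. At the low end Nkd1, a Wnt inhibitor, Lockd, a long noncoding RNA, the histone methyltransferase Ezh2, the Hippo factor Tead2, the replication control gene Dtl and the tetraspanin Tspan6 had no UMI in the class, which makes them at least 6.72-, 6.15-, 6.01-, 5.21-, 4.56- and 4.06-fold lower. With no UMI in the class, the rank of these genes by log2 fold change rests on the fit. They are not shown to be lower than genes with 1 UMI there, such as Ptn and Mcm7. Tspan6 was no longer called without mouse 1.

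Immediate early and heat shock genes were uneven over mice and barcodes. The list stood at 58.4, 38.6, 29.5 and 188 UMIs per 10000 in mice 1 to 4, against 30.9, 31.9, 25.6 and 32.2 in other barcodes. Without the 7 barcodes of other myeloid markers the class stood at 45.4, 15.8, 22.1 and 211, below the other barcodes in mice 2 and 3. Of 12 tested of 18 immediate early and heat shock genes, 8 were higher and 1, Hsp90aa1, a chaperone, was lower (log2 fold change -1.27 ± 0.24, adjusted p = 2.91e-06 by edgeR). Fos, which is induced within minutes of a stimulus, had 14.1, 4.48, 9.64 and 41.8 UMIs per 10000 in mice 1 to 4, against 1.65, 1.52, 1.06 and 1.82 (log2 fold change 3.68 ± 0.24 (SE), adjusted p = 8.85e-52). Its 174 UMIs came from 11 barcodes, and 44 from 1. Junb had 6.13, 8.97, 0.567 and 28.8, against 0.591, 0.357, 0.345 and 0.376, and overlapped (log2 fold change 4.74 ± 0.38 (SE), adjusted p = 3.87e-33). Zfp36, which destabilises cytokine mRNA, had 3.61, 0.897, 1.13 and 6.65, against 0.0473, 0.0118, 0.0182 and 0.0187 (log2 fold change 7.34 ± 0.57 (SE)). Mouse 4 was the highest for all 3 genes. Without mouse 4, 4 genes were called higher, and without the deep barcodes of the class 1 was.

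The same genes were set against Malat1, a long noncoding RNA that stays in the nucleus. Malat1 was below 30 UMIs per 10000 in 29 of 64 microglia and macrophage-like barcodes (45.3%), against 26.2% of other barcodes, and in more of the class in each of the 4 mice: 35.0% against 24.1%, 40.0% against 29.4%, 57.1% against 23.7% and 46.2% against 28.3%. The limit of 30 was set after seeing the data, and 9 of 64 barcodes lie between 15 and 60. In sums, Malat1 had 168, 95.1, 43.7 and 212, against 126, 195, 179 and 161, and did not pass (log2 fold change -0.26 ± 0.11, adjusted p = 0.163 by edgeR). Without mouse 1 it passed as lower, at -0.67, and without mouse 3 its sign turned.

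Split at that limit, and with the 7 barcodes of other myeloid markers left out, the class gave 2 sets of 28 and 29 barcodes. The immediate early and heat shock list stood at 65.7, 22.3, 42.8 and 327 UMIs per 10000 with Malat1 at 30 or more, against 6.53, 8.39, 5.27 and 9.15 below it. The first set held 152 Fos UMIs and the second 0, but 6 of the 28 barcodes of the first set held all 152 and 592 of the 635 list UMIs. In mouse 3, 1 barcode held 31 of the 33 list UMIs, with Malat1 at 30.8, just above the limit. Without the barcode with the most list UMIs in each mouse, an alternative added after seeing the data, the first set stood at 41.9, 17.5, 4.84 and 279.5, so mouse 3 no longer lay above the second set. The same lists in other barcodes were 26.9 to 35.3 at 30 or more and 14.5 to 17.5 below it. The lysosome list went the other way in 4 of 4 mice, 418, 295, 327 and 359, against 538, 431, 379.7 and 391. In other barcodes the lysosome list was 31.5 to 36.1 at 30 or more, against 18.8 to 21.8 below it. Median depths of the 2 sets were 1194.5, 1037, 604 and 2691 UMIs in mice 1 to 4 with Malat1 at 30 or more, against 857, 853.5, 633.5 and 1390 below it. The 6 barcodes with Fos held 1253 to 4190 UMIs. The part of depth in these gaps was not tested.

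**Figure D5:**
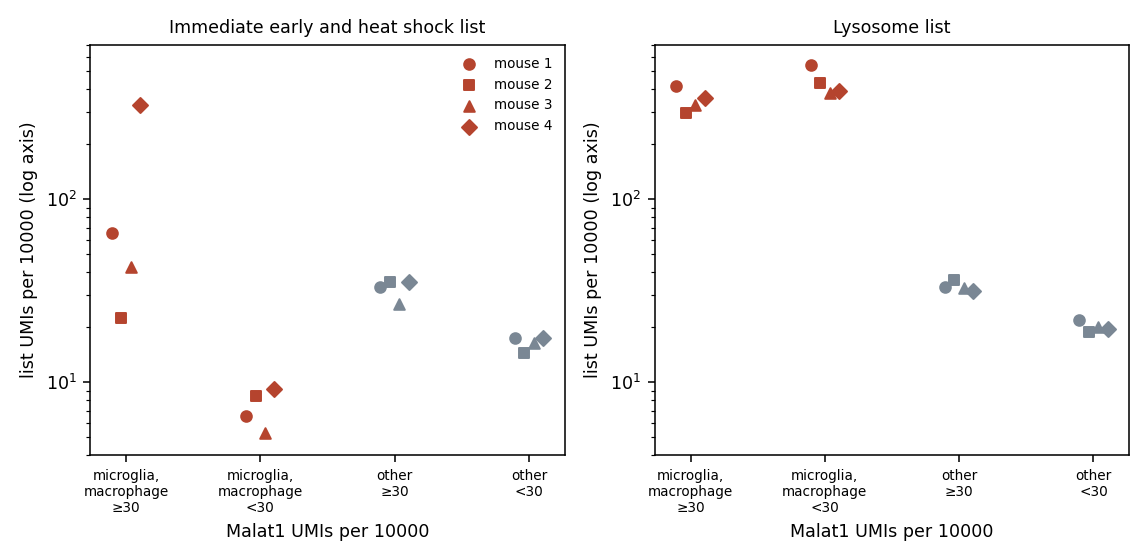
UMIs of the immediate early and heat shock list (left) and of the lysosome list (right) per 10000 (log axis), 1 point per mouse, for microglia and macrophage-like barcodes without other myeloid markers (red) and for other barcodes (grey), each split at 30 Malat1 UMIs per 10000. Below the limit, the red points of the left panel lie at 5.27 to 9.15 and those of the right panel at 379.7 to 538. The left panel's red point of mouse 3 at 30 or more rests on 1 barcode.

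The relaxed filter added 24 of the 64 barcodes to the 40 that pass 500 genes and 10% mitochondrial UMIs, 5, 3, 16 and 0 in mice 1 to 4. All 24 fell under the gene minimum and 1 also exceeded the mitochondrial limit. Too few mice held 5 barcodes of each kind for a test, so values are given. The 40 had a median of 1244.5 UMIs and the added 24 of 614. The 10 selecting genes stood at 324 UMIs per 10000 in the 40 and 271 in the added 24. The microglia list stood at 149 and 90.2, and the granule lineage list at 6.39 and 4.07. Within mice the granule lineage list stood at 5.73 in the stricter and 3.03 in the added barcodes of mouse 1, at 4.44 and 0 in mouse 2, and at 0 and 5.37 in mouse 3, so mouse 3 went the other way.

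The gap differed by gene group. Apoe stood at 315 UMIs per 10000 in the 40 and 277 in the added 24, and Ctsd at 111 and 116. Malat1 stood at 165 and 59.7, and the immediate early and heat shock list at 107 and 19.0. Tmsb4x was the higher in the added ones, 279 and 418. Since 16 of the 24 came from mouse 3 and none from mouse 4, mouse and filter cannot be told apart in these pooled values. Within mouse 3, where 5 barcodes passed the stricter filter and 16 were added, the microglia list stood at 69.7 and 86.9, Malat1 at 15.6 and 68.7, and Tmsb4x at 324 and 452. Within mouse 1, with 15 and 5, the microglia list stood at 169.8 and 57.7, and Malat1 at 184 and 48.6. Malat1 therefore lay lower in the added barcodes in mouse 1 and higher in mouse 3.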

How the data were processed

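Single cells of 4 tumours were profiled with 10x Chromium 3′ libraries, processed with Cell Ranger 2.0.2 and Seurat on mm10 per the submitters' processing notes. The deposited values are raw UMI counts per gene and barcode, per the file headers, and are whole numbers for 27998 genes. The library of mouse 1 was sequenced again at a later time, per the labels' protocols. Barcodes were selected as described above, and sums for each class in each mouse were tested with edgeR 4.0.16 (R 4.3.3, filterByExpr, glmQLFit and glmQLFTest, mouse as block), with DESeq2 1.42.0 as an alternative. Summaries used Python 3.11.15, numpy 2.4.6, pandas 2.3.3 and scipy 1.17.1.

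TMM factors came from the 500 genes with the highest mean, in place of TMM over all genes, as first planned. The change was made after the fit was tested on simulated data, and factors from all genes are given as an alternative. In those data the main fit recovered 15.4%, 38.5%, 100% and 100% of genes set higher by 1, 2, 4 and 6 log2 units. It recovered 0%, 0%, 35.7% and 31.25% of genes set lower by the same steps. A gene or list not called lower is therefore not shown to be equal in the 2 classes. Each step held only 13 to 23 genes set higher and 14 to 16 set lower. The simulated counts followed the profile of the other barcodes with a common small dispersion. Genes carried by few barcodes were not simulated, so recovery in the real class can differ. Genes passed edgeR's filter on low counts.

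Both classes of a mouse share an animal and a library, which pairs them. Correlations of their deviations were 0.176, -0.199, -0.314 and -0.0852 in mice 1 to 4. P-values come from sums over 4 littermates, with the dispersion estimated by edgeR using information from all genes. For a gene that is uneven over mice, p-values and standard errors can be smaller than its own spread over mice would give. UMIs of 1 barcode share a droplet, and free RNA adds UMIs to every barcode.

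Members, gene lists and tests were chosen with earlier results of these data known. Named genes were the 10 selecting genes, the 12 largest higher and 6 largest lower calls with 1 direction in every mouse and at least 20 UMIs, the 3 smallest adjusted p of each list, a fixed set, and listed genes that were not called or at 0; results for a few of them are not reported here. Other listed genes, among them Ctsz, Ctsc, Ctsl, Lgmn, Psap, Npc2, Lpl, Cyba, Ccl12 and Ccl7, were named after their values were seen. No doublet caller was run. Deep barcodes of the class were left out as an alternative. The genes Trbc1, Igkc and Clec7a are not under those names in the files used. Outliers are judged by Dixon's test at the 95% level.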

Additional observations from a re-analysis of the deposited data

Results flagged for a closer look

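In 14 of 84 gene or list levels tested over the 4 mice, 1 mouse stood apart by Dixon's test. Its chance rate of about 1 in 20 holds for independent, normally distributed levels. These levels are sparse counts, and some of the genes belong to the lists. A level above 0 in only 1 mouse is always flagged. The number flagged is therefore not set against chance. Levels are UMIs per 10000 in microglia and macrophage-like barcodes. In mouse 2 the monocyte list was at 104, against 1.70 to 6.65 in the other mice, and Chil3 at 86.1, against 0.721 to 4.80. In mouse 4 the neutrophil list was at 595, against 1.13 to 70.0, S100a8 at 345, against 1.13 to 37.7, Anxa1 at 7.76, against 0.721 to 1.13, and Ccl4 at 39.2, against 0 to 5.05. In mouse 1 the MHC class II list was at 123, against 1.79 to 15.9, Cd74 at 37.9, against 0.369 to 5.10, H2-Aa at 33.2, against 0 to 2.83, Ms4a7 at 6.13, against 1.79 to 2.27, and the dendritic list at 2.52, against 0. The T and NK list and the choroid plexus and ependymal list were each at 0.369 in mouse 4, from 1 UMI, against 0. In mouse 3 the CSF1R and TGF-beta upkeep list was low at 3.97, against 7.18 to 7.76. For S100a8, Chil3, Cd74, H2-Aa, Anxa1 and Ccl4, 1 barcode held 934 of 1013, 96 of 113, 105 of 116, 92 of 98, 21 of 26 and 67 of 121 UMIs.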

How the results depend on the processing

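The 405 higher calls became 680 with a filter of at least 5 UMIs, 134 with every barcode thinned to 500 UMIs and 220 without the class's deep barcodes, and ran from 278 to 375 without each mouse in turn. The 268 lower calls became 868 with factors from all genes (an alternative added after seeing the data), 427 without factors, 112 thinned and 113 without deep barcodes, and ran from 151 to 221 without each mouse. Thinning left 3488 genes to test. For the other shifts the cause was not tested. DESeq2 called 353 higher and 260 lower, of which 342 and 249 were shared. The pairing of classes by mouse was part of the fit: with no replicate block, 447 genes were higher and 360 lower. Other changes of filter, gate or library size stayed within 1.5 times, as did the fit without the 7 barcodes of other myeloid markers, also added later (343 higher, 194 lower).

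For 139 named genes, 2003 of 2210 alternative values kept direction and side of the threshold, 192 lost the call, 8 gained it and 7 reversed: Gli1 (-0.98 to 0.35 without each mouse in turn, above 0 without mouse 2 or 4, and 0.0743 without the 7 barcodes), Cd9 (-0.0929) and Ier2 (-1.57) without deep barcodes, Actb (-0.12) with factors from all genes, and Malat1 (-0.67 to 0.25, above 0 without mouse 3). Of 87 genes tested in all 17 alternatives, 45 kept their call in each, and the genes outside those 87 fell below the filter in at least 1. The share of barcodes and the differences in depth, mitochondrial share, granule level and dividing share kept direction in every alternative run. The test of stricter against added barcodes and its alternatives were not run, since 2 mice held at least 5 barcodes of both kinds. Depth limits the class: 83586 UMIs put 3 UMIs at 1.08 to 2.69 per 10000 in a mouse.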
